A study of Homo sapiens with 36 samples.

Results

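The regions described here are sites of HIF-α binding that lie more than 100 kb from the transcription start site (TSS) of any protein-coding gene. Peaks of the 15 anti-V5 lists from tagged lines were merged where they overlapped, regions with peaks from at least 2 lists were kept, and the centre of a region was the median of its peak summits. Of 25350 such regions, 3558 (14.0%) had a centre more than 100 kb from the nearest protein-coding TSS and are called remote regions. A further 9681 regions lay at 10 to 100 kb, 4829 at 1 to 10 kb and 7282 within 1 kb (promoter regions). Among the merged regions distance alone chose the members, but a region enters only with called peaks in tagged lists, and WT lists were not used to define it. Binding was mapped by Cut&Run, in which an antibody tethers a nuclease to chromatin and the DNA released around the bound protein is sequenced. All cells were 786-O, a clear cell renal carcinoma line that lacks functional VHL and HIF-1α and in which HIF-2α is stabilized. Each of 6 lines gave 3 biological replicates, each with an anti-V5 library and the mouse IgG library it was called against. WT cells carried no tag. HIF-2α KIN cells were 1 homozygous clone, A31, with V5 and HaloTag at the N-terminus of endogenous HIF-2α. In 4 stable lines an L30 promoter drove an exogenous protein with the same N-terminal tags: HIF-1α, HIF-2α, or a chimera of both. HIF-1α/2α joins the N-terminal DNA-binding and dimerization portion of HIF-1α (here DBD) to the C-terminal portion of HIF-2α with its intrinsically disordered region (IDR), and HIF-2α/1α is the reverse chimera. These 4 lines also kept untagged endogenous HIF-2α. The lists hold no expression values, so the labelled cell type was not checked against marker genes.

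HIF-1α and HIF-2α each pair with HIF-1β and bind a short core motif, the hypoxia response element (HRE). Remote binding sites of transcription factors are often enhancers, stretches of DNA that act on promoters through looping of the chromatin, and the nearest gene need not be the one they act on. AP-1, the dimers of the FOS and JUN families, binds many enhancers in epithelial and cancer cells, and its motif is a common companion of other factors there.

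The sequences of 8 remote regions that the results below turn on are shown first, because they carry the motifs searched for later. Each is 151 bp of the plus strand of hg38, read 5′ to 3′, centred 80 bp to the lower-coordinate side of the region's centre, where the motifs were found to gather. Capitals mark the HRE core, searched as ACGTG or GCGTG on either strand (CACGT and CACGC are the reverse complements), or the AP-1 motif, searched as TGACTCA or TGAGTCA, which are each other's reverse complement. Neither motif contains the other.
LINC01714 start, chr1:8202275-8202425: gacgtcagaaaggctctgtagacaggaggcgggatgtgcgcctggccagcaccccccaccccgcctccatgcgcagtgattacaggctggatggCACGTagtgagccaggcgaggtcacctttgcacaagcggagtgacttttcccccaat
SCIRT, toward VEGFA, chr6:44010979-44011129: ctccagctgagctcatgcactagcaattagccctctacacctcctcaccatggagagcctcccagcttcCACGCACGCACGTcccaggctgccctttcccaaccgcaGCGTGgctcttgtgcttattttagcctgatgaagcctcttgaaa
beside CXCR4, chr2:136246324-136246474: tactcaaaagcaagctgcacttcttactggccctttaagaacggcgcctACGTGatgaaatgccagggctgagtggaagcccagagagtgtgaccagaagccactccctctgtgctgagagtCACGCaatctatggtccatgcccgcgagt
beside IGFBP3, chr7:46557498-46557648: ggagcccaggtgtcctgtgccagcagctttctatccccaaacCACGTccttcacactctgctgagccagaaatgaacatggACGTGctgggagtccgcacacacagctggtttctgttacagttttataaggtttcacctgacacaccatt
beside FOXL1, chr16:86735017-86735167: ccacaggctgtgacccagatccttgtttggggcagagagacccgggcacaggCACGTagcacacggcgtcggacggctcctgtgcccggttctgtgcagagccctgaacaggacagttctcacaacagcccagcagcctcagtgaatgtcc
beside FZD8, chr10:35795291-35795441: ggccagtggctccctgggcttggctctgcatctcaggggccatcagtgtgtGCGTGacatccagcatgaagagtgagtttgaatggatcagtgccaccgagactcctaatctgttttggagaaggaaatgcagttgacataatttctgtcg
beside MAF, chr16:80027299-80027449: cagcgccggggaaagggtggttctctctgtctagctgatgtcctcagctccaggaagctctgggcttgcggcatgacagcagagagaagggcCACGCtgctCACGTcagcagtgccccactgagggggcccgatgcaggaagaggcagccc
beside GATA3, chr10:8279600-8279750: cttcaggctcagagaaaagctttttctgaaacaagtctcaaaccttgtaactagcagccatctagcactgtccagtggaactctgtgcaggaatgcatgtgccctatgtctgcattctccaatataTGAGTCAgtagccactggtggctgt
The first 4 were called in all 15 tagged libraries and in no WT library. The nearest protein-coding gene of the SCIRT site was TMEM63B, at 116 kb, and not VEGFA. The FOXL1 and FZD8 sites had more signal with the HIF-2α IDR, and the MAF site had more signal with the HIF-1α DBD. The 151 bp of the GATA3 site held an AP-1 motif and no HRE. That motif lay outside the narrower window, 50 bp to each side of the same position, used for the motif counts below, where this site held neither motif. Over all remote regions, a window of this length held the HRE core in 40.7% and the AP-1 motif in 27.3%. Over all 25350 regions the shares were 47.8% and 20.3%.

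Remote regions were spread thinly over the gene-poor part of the genome. The median distance to a protein-coding TSS was 186 kb and the greatest 2692 kb: 1928 regions lay at 100 to 200 kb, 1225 at 200 to 500 kb and 405 beyond 500 kb. DNA more than 100 kb from a protein-coding TSS made up 40.2% of the assembled genome (1180 of 2938 Mb) and held 3.02 remote regions per Mb, whereas the rest of the genome held 12.4 regions per Mb. Among the autosomes the density ran from 1.45 per Mb on chromosome 4 to 5.27 per Mb on chromosome 22. The region was most often between genes (1536 regions, 43.2%), inside a long non-coding RNA (lncRNA) gene (1119, 31.5%) or in an intron of a protein-coding gene (847, 23.8%), and 26 lay in an annotated exon of one. At 10 to 100 kb the order differed, with 49.0% in introns of protein-coding genes, 32.7% between genes and 13.2% in lncRNA genes. Many remote regions were therefore remote from coding genes only: 874 (24.6%) had a lncRNA TSS within 10 kb, 276 (7.76%) had some TSS within 1 kb, and 388 were more than 100 kb from the TSS of a gene of any type. Remote regions had a median length of 625 bp, against 626 bp at 10 to 100 kb, and a median GC content of 46.3%, against 49.3% at 10 to 100 kb and 66.2% at promoters. Just inside the limit lay regions beside PCBP3, EXT1 and GPC3, all at 100.1 kb, and just outside it regions beside NTRK3, TTC32 and SLC44A3 at 99.98, 99.97 and 99.95 kb.

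Whole lists differed in length. They held 392 to 20808 peaks at an inferred depth of 0.241 to 0.625 fragments per base, and replicate 2 gave the longest list in each line. WT replicate 2, with 9508 peaks, and HIF-2α replicate 2, with 20651, stood apart from the other replicates of their lines. A region without a peak in a list was not called there, which does not show that it was unbound.

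Because both long and short lists enter, the weight of remote sites was first taken as a share of each list's own peaks, with no merged regions. In WT cells 34.2, 26.9 and 17.9% of peaks were remote (replicates 1, 2 and 3). The shares were 16.0, 19.5 and 14.1% in KIN, 15.8, 16.7 and 15.8% in HIF-2α, and 14.5, 17.3 and 14.1% in HIF-1α/2α. They were 11.6, 14.2 and 12.7% in HIF-1α and 12.7, 13.4 and 12.8% in HIF-2α/1α. Untagged cells thus gave lists richer in remote peaks than tagged cells did, with overlap between WT replicate 3 and 1 KIN library. The tagged mean was 14.7 ± 2.10% (SD, n = 15) and the WT mean 26.3 ± 8.16% (n = 3), which gave −11.6 percentage points for tagged minus WT (two-sided exact permutation p = 0.00245, adjusted p = 0.00844). The size of that difference rested on WT replicate 1, without which it was −7.65. The depth behind a WT list's remote share was 134, 2554 and 133 peaks.

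**Figure D1:**
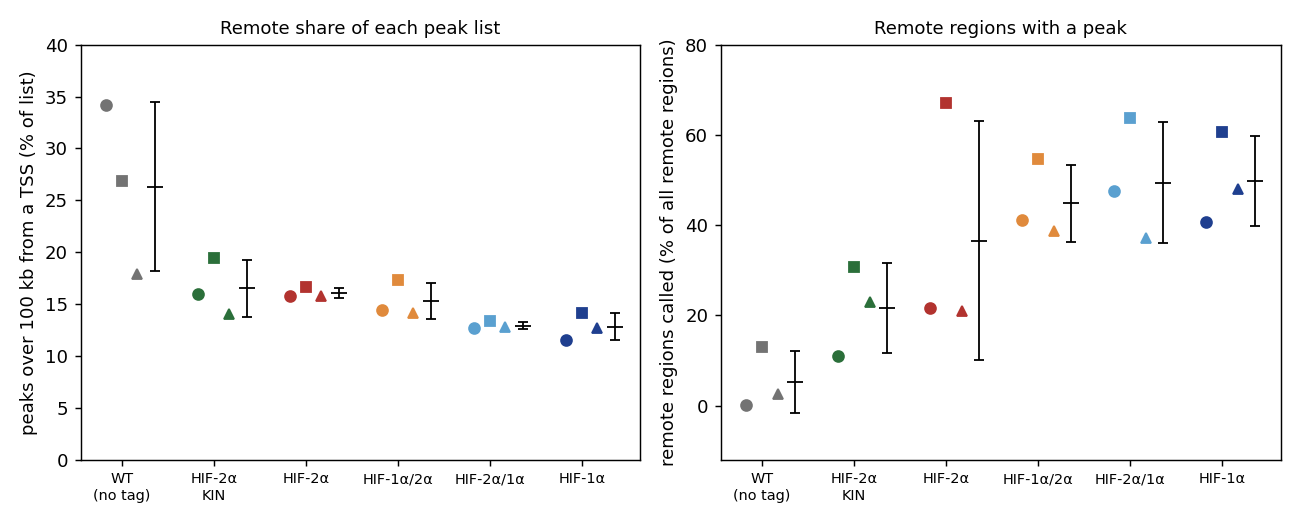
Left, peaks more than 100 kb from a protein-coding TSS as a percent of each library's list; right, percent of the 3558 remote regions with a peak in each library. Circles, squares and triangles are replicates 1, 2 and 3, and the bar beside them is the mean ± SD (n = 3); WT replicates 1 and 2 have the highest remote shares, 34.2 and 26.9%, and WT replicates 1 and 3 called the fewest remote regions, 0.14 and 2.59%, of a set defined from tagged lists.

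Among the exogenous lines the IDR went with the remote share. The remote share was 15.7 ± 1.23% where the IDR came from HIF-2α and 12.9 ± 0.866% where it came from HIF-1α (SD, n = 6 each). The difference of 2.80 points had a p of 0.01 (adjusted p = 0.022) when exact permutation was confined to libraries with the same DBD. Each construct was carried by a single stable line, so this p measures the spread between libraries and not between lines made independently. The ranges, 14.1 to 17.3% and 11.6 to 14.2%, met at their ends. The difference was 3.01, 3.20 and 2.19 points within replicates 1, 2 and 3, 3.14 points with the HIF-2α DBD and 2.46 points with the HIF-1α DBD (exact permutation p for the difference between them = 0.77). The DBD itself made a difference of 0.452 points (exact permutation p = 0.49). Remote peaks also differed in base composition between these libraries: their median GC content was 45.8 to 47.8% in libraries of the HIF-1α IDR, against 42.8 to 45.8% in those of the HIF-2α IDR. The part of GC content in the difference in share was not tested.

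The share of remote regions with a called peak differed widely between libraries. The share of the 3558 regions with a peak was 11.0, 30.8 and 23.0% in KIN, 21.7, 67.1 and 20.9% in HIF-2α, and 41.2, 54.6 and 38.8% in HIF-1α/2α. It was 40.7, 60.6 and 48.0% in HIF-1α and 47.5, 63.6 and 37.1% in HIF-2α/1α. In WT it was 0.14, 13.0 and 2.59%. The spread between replicates was as wide as the spread between exogenous lines, and the IDR difference of −8.86 points had an exact permutation p of 0.33. This comparison turned with the length of the lists. When each list was cut to its 3984 peaks of highest −log10 q, the length of the shortest tagged list, and regions were merged anew, libraries with the HIF-2α IDR called 11.2 points more of the remote regions (exact permutation p = 0.005, the smallest that 400 relabellings allow). Calls in the same cut lists defined those regions, so a library with more remote peaks also tends to call more of them. That p is therefore not separate support beside the difference in remote share. In the full lists the HIF-2α DBD gave a call rate that differed from that of the HIF-1α DBD by −4.31 points (p = 0.625, exact permutation). Remote regions were called slightly less often than those at 10 to 100 kb in the same library, by −2.66 ± 2.68 points (SD, n = 15, lower in 13 of 15, exact permutation by sign flips p = 0.00269), but in the lists of equal length this difference was −0.114 points (p = 0.907, exact permutation).

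Most remote regions were seen in a minority of libraries. A remote region was called in a median of 5 of the 15 tagged libraries, 865 (24.3%) were called in 2, and 229 (6.44%) in all 15, against 7.08% in all 15 at 10 to 100 kb. Of the 229, 157 had no WT peak, which is 4.41% of remote regions, against 4.74% of all 25350. All 12 exogenous libraries called 364 remote regions (10.2%), against 10.7% of all 25350. A WT peak overlapped 478 remote regions (13.4%), of which 77 had peaks in at least 2 WT libraries and 4 in all 3. Of all 25350 regions, 3255 (12.8%) had a WT peak, 475 in at least 2 WT libraries and 25 in all 3. The share with any WT peak was 14.8% at 10 to 100 kb and 9.24% at promoters.

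Remote regions were also called for endogenous HIF-2α, and exogenous libraries called most of those seen in at least 2 KIN libraries. At least 2 KIN libraries called 627 of the 3558 remote regions and all 3 called 313. Of all 25350 regions, at least 2 KIN libraries called 5048 and all 3 called 2362. Exogenous libraries called 83.3 ± 9.70% of the 627 (SD, n = 12, range 63.0 to 93.8%) and WT libraries 12.4 ± 14.1% (n = 3, range 0.797 to 28.1%), so the exogenous share was larger by 70.9 points (exact permutation p = 0.0022, adjusted p = 0.00844, with no smaller p attainable). A low WT share was partly set in advance. The 627 were chosen by calls in tagged lists, and WT replicates 1 and 3 held only 134 and 133 remote peaks. No KIN library called 2191 remote regions (61.6%), against 58.3% of all 25350 regions, and 5 (0.141%) were called in KIN and no exogenous library, against 0.122% of all. One of the 5, chr6:44662762-44663179, 275 kb from CDC5L, had fold enrichments of 4.59, 5.55 and 9.59 in the KIN replicates and no peak elsewhere. At the other end, chr12:5309549-5310128, 122 kb from NTF3, was called in 12 of 12 exogenous libraries (8.08 to 58.9-fold) and in no KIN library.

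The motifs that HIF and AP-1 bind were not centred on the deposited summits (plot of motif positions). Over peaks more than 10 kb from a TSS, the median position of the HRE core in excess of its flanking level was −95 to −85 bp from the summit in all 15 tagged libraries, that is on the lower-coordinate side, and that of the AP-1 motif was likewise −95 to −85 bp. TSS showed an offset of the same sign: the median summit lay at −11 bp from TSS on the plus strand and at 121 bp from TSS on the minus strand, in plus-strand coordinates. The cause of the displacement was not tested. Moving every centre by −80 bp would remove 0 remote regions and add 3, so distances were left as deposited, and motif counts are given in windows of 50 bp to each side of the position 80 bp below the centre or summit (the moved window) and, where tests are quoted, also at the deposited summit.

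**Figure D2:**
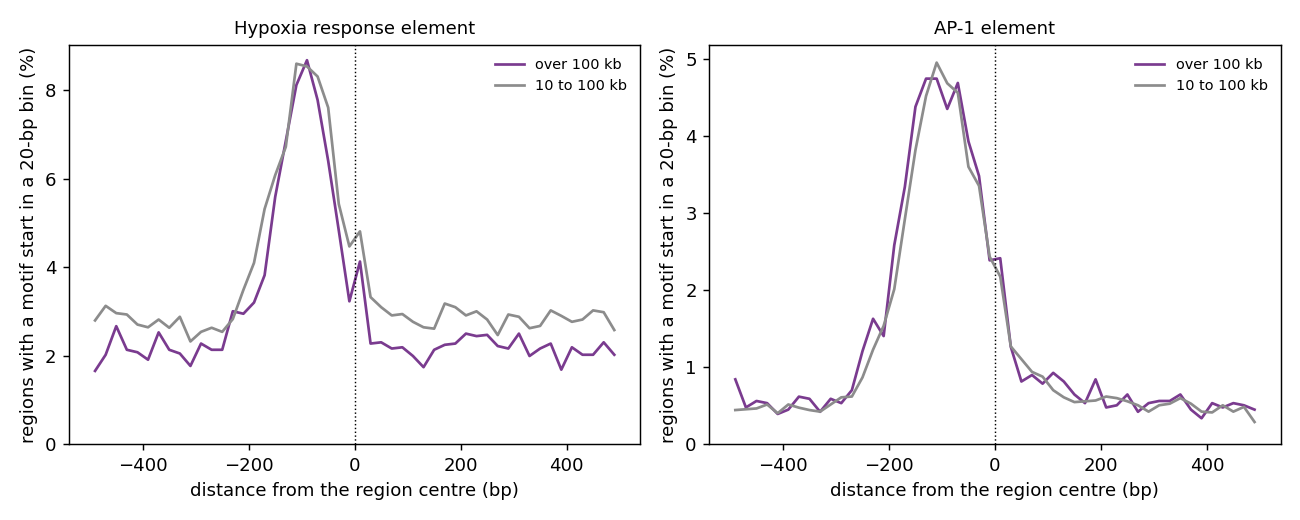
Percent of regions with a motif start in each 20-bp bin, by distance from the region centre in bp (negative is the lower-coordinate side), for regions over 100 kb from a TSS (purple) and at 10 to 100 kb (grey). In remote regions the HRE core is most frequent in the bin centred at −90 bp (8.68%) and both motifs gather below the centre.

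In the moved window 1132 remote regions (31.8%) held an HRE core, against 9.71% in windows 1 kb to each side, and 700 (19.7%) held an AP-1 motif, against 1.91% in the flanks. Both motifs were present in 206 and neither in 1932 (54.3%). Regions at 10 to 100 kb were alike, with 33.2% and 19.9%, while promoter regions held more HRE cores and few AP-1 motifs, 48.8% and 3.46%. The HRE was more frequent in remote regions called by more libraries: 23.8% of those called in 2 to 4 libraries held it, 34.0% in 5 to 9, 42.1% in 10 to 14 and 59.4% in all 15. The AP-1 motif showed no such order, with 18.7, 22.0, 18.7 and 19.2% (plot of calls and motifs). The same was tested per library. Calls in these same lists defined the regions and set their centres, so these p-values are not separate support for the order above. A remote region with an HRE core in the moved window was called more often than one without it, by 12.7 points on average (exact permutation p = 6.1e-05, the lowest attainable), and at the deposited summit by 5.02 points (higher in 15 of 15 libraries, p = 6.1e-05, exact permutation). For the AP-1 motif the difference was 0.291 points in the moved window (exact permutation p = 0.66) and 2.90 points at the summit (higher in 14 of 15, p = 0.000122, exact permutation).

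**Figure D3:**
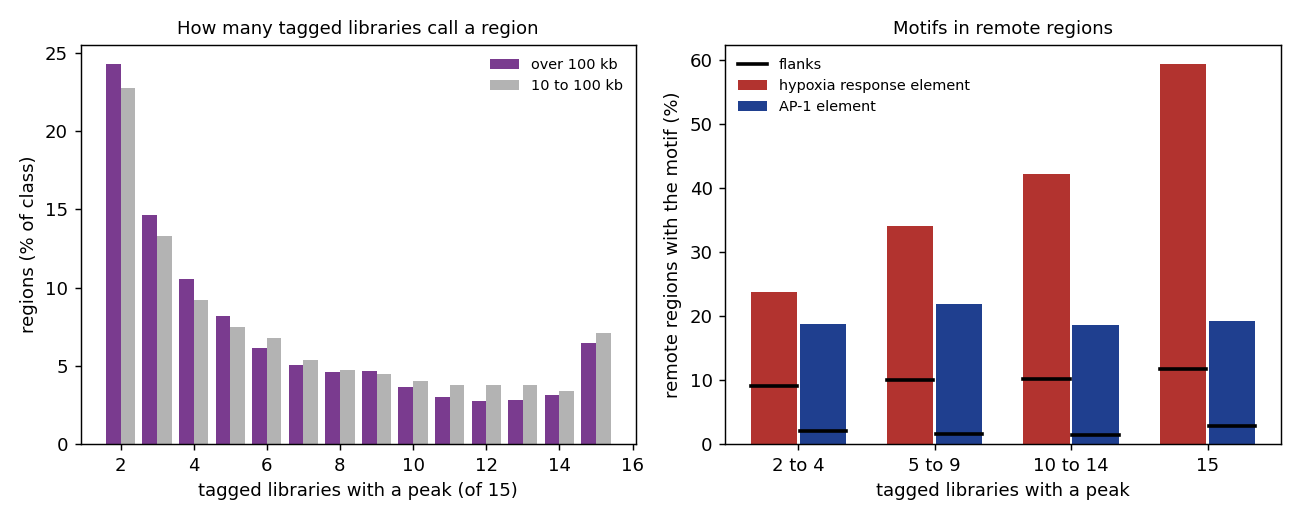
Left, regions by the number of tagged libraries that call them, as a percent of remote regions (purple, 3558) and of regions at 10 to 100 kb (grey, 9681). Right, percent of remote regions with the HRE core (red) or the AP-1 motif (blue) in the moved window, by number of calling libraries, with the flanking level as a black line; the HRE bars climb from 23.8 to 59.4%.

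The HRE excess, the percent of remote peaks with the core minus that of their flanks, separated tagged cells from WT. In the moved window it was 22.4, 9.39 and 19.0 points in KIN, 24.9, 18.2 and 29.7 in HIF-2α, and 20.2, 14.1 and 23.8 in HIF-1α/2α. It was 19.6, 20.9 and 20.9 points in HIF-1α, 17.4, 23.0 and 24.9 in HIF-2α/1α, and −2.24, −0.274 and 7.89 in WT. Every tagged library was above every WT library, by 18.8 points on average (20.6 ± 4.84 against 1.79 ± 5.37, SD, n = 15 and 3, exact permutation p = 0.00123, the lowest attainable). At the deposited summit tagged lists exceeded WT by 9.03 points (p = 0.00123, adjusted p = 0.00674, exact permutation). Neither the IDR (0.711 points, exact permutation p = 0.77) nor the DBD (3.11 points, p = 0.225) passed the test in the moved window.

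AP-1 motifs marked remote peaks of tagged cells and, less firmly, those of untagged cells. The AP-1 excess in the moved window was 7.40 to 17.4 points in the 15 tagged libraries and 2.61, 3.70 and 14.3 in WT replicates 1, 2 and 3, so that WT replicate 3 lay within the tagged range. The means were 13.7 ± 2.84 and 6.87 ± 6.45 points, which differed by 6.84 (exact permutation p = 0.0123). At the deposited summit tagged lists exceeded WT by 3.16 points (p = 0.027, adjusted p = 0.0494, exact permutation). The excess was 6.67, 4.47 and −1.65 within replicates 1, 2 and 3, and without WT replicate 1 or WT replicate 2 it was 1.76 or 2.20 and no longer passed the test. Compared with peaks at 10 to 100 kb in the same library, remote peaks had a lower HRE excess, with a difference of −1.46 points (lower in 10 of 15, exact permutation p = 0.0428) in the moved window and of −1.26 at the deposited summit (p = 0.0192, adjusted p = 0.0385, exact permutation). The AP-1 excess differed by −0.928 points in the moved window (lower in 10 of 15, p = 0.0262, exact permutation), but at the deposited summit by −0.396, which did not pass the test (p = 0.106, adjusted p = 0.167, exact permutation), and its sign turned at the summit with a limit of 50 kb, with a −log10 q of at least 5 and in lists of equal length.

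Single remote regions were then compared between the IDRs by their calls, 6 libraries against 6. Over all 25350 regions 1.42% had an exact Fisher p below 0.05 for the IDR, 1.32% in favour of the HIF-1α IDR and 0.0947% in favour of that of HIF-2α. Of the remote regions 41 (1.15%) did, 10 (0.281%) in favour of the HIF-2α IDR and 31 (0.871%) in favour of the HIF-1α IDR, so that the side of HIF-2α was above its background and the other below. The direction turned in the lists of equal length, where 28 of 881 remote regions (3.18%) favoured the HIF-2α IDR, against 1.21% of all 7111 regions merged there, and 1 (0.114%) the HIF-1α IDR, against 0.928%. By DBD the background was 0.564%, 0.0750% on the HIF-2α side and 0.489% on the HIF-1α side, and 23 remote regions (0.646%) passed, 2 and 21. In the lists of equal length 4 (0.454%) and 14 (1.59%) passed, against 0.745% and 1.63% of all. The DBD shares were near the background in the full lists. After adjustment over all regions 0 remained for either part, since 6 calls against 0 give at best an exact p of 0.00216. An all-or-none pattern by IDR was seen in 3 remote regions. The region chr2:118468695-118469535, between INSIG2 and EN1 and 378 kb from EN1, had peaks of 8.06, 21.6 and 6.69-fold in HIF-2α and 14.0, 23.0 and 11.9-fold in HIF-1α/2α and none in the other 2 exogenous lines, in KIN or in WT. The region chr9:89755912-89757291, 151 kb from GADD45G, a stress-induced growth arrest gene, had the opposite pattern, with peaks of 9.74, 29.7 and 19.6-fold in HIF-1α and 23.0, 54.5 and 6.84-fold in HIF-2α/1α. It was also called in all 3 KIN libraries (9.44, 8.79 and 12.1-fold), whose protein has the HIF-2α IDR. The third, chr4:23373274-23373820, lay 508 kb from PPARGC1A, a coactivator of mitochondrial genes, and had 4.20 to 11.3-fold peaks in the 6 libraries with the HIF-1α IDR and a peak in 1 KIN library. By DBD, chr2:228880845-228882307 in an intron of PID1 and chr4:176538233-176538727, 219 kb from SPCS3 and 254 kb from VEGFC, were called in all 6 libraries with the HIF-1α DBD and in none with the HIF-2α DBD.

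Calls alone do not show how much protein was bound, so the signal was compared at regions that all 12 exogenous libraries called, 2720 in all, of which 364 were remote. The signal was the number of fragments at the summit over the genome mean, recovered from the deposited fold and −log10 p, on a log2 scale centred on each library's median over the 2720 regions. A difference in this signal therefore compares a region with the other regions of the same libraries. The shortest of the 12 lists, with 6590 and 5906 peaks, were those of HIF-2α replicates 1 and 3. A region entered only if called there too, so the filter leaned on libraries with the HIF-2α IDR and DBD. The part of this filter in the signal differences below was not tested. At a limma adjusted p below 0.05 over the 2720 regions, 24.5% had more signal with the HIF-2α IDR and 18.5% had less. Of the remote regions 161 (44.2%) had more and 16 (4.40%) less, with a median difference of 0.31 on the log2 scale (quartiles 0.01 and 0.71, above 0 in 276 of 364). The median was 0.12 at 10 to 100 kb, where 324 of 1067 had more and 134 less, 0.05 at 1 to 10 kb, and −0.25 at promoters, where 56 of 771 had more and 270 less. Within the remote regions the median was 0.28 at 100 to 200 kb (88 of 218 more, 14 less), 0.34 at 200 to 500 kb (54 of 111 more, 2 less) and 0.44 beyond 500 kb (19 of 35 more, 0 less), with the other classes shown in the plot of signal by distance. For the DBD the background was 16.8% with more signal for the HIF-2α DBD and 14.0% with less. In the remote regions 72 had more and 38 less, with a median of 0.11. An IDR-by-DBD interaction was called at 0 remote regions by limma, and at 3 of the 2720.

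**Figure D4:**
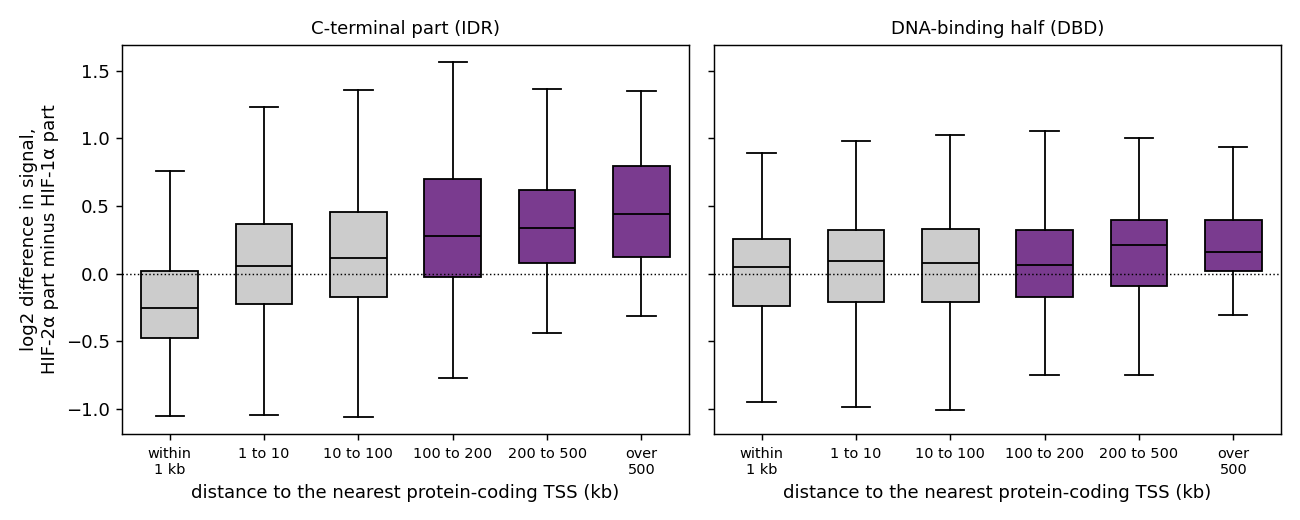
Log2 difference in centred signal at the 2720 regions called in all 12 exogenous libraries, by distance to the nearest protein-coding TSS, for the IDR (left) and the DBD (right), HIF-2α part minus HIF-1α part. Boxes give the quartiles and median, whiskers the most extreme values within 1.5 times the box; remote classes are purple, and their IDR medians are 0.28, 0.34 and 0.44.

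These counts depended on the scale. Without centring of the libraries 3 remote regions had more signal with the HIF-2α IDR and 0 less, against 8 and 1 of all 2720. The median was then 0.07 for remote regions and −0.21 for all 2720. On the deposited fold 13 remote regions (3.57%) had more and 0 less, against 46 (1.69%) and 15 (0.551%) of all 2720. The contrast between remote regions and the others does not use the centring and was tested per library. The median log2 signal of remote regions minus that of regions at 10 to 100 kb was 0.24, 0.30 and 0.19 in HIF-2α and 0.11, 0.18 and 0.10 in HIF-1α/2α. It was −0.11, −0.03 and −0.03 in HIF-1α and −0.10, 0.00 and 0.00 in HIF-2α/1α. The IDR groups did not overlap, at 0.19 ± 0.08 and −0.05 ± 0.05 (SD, n = 6 each), and differed by 0.23 (exact permutation p = 0.005, adjusted p = 0.0122, with no smaller p attainable). That p measures the spread between libraries, and with a single stable line per construct, line and construct cannot be told apart. The difference was 0.28, 0.26 and 0.16 within replicates 1, 2 and 3. Against promoter regions it was 0.63 (0.48 ± 0.14 and −0.15 ± 0.13, exact permutation p = 0.005, adjusted p = 0.0122). GC content moved with the classes: after centring within 10 bins of GC content the differences were 0.20 and 0.30 (exact permutation p = 0.005 for each). With that centring the median IDR difference of remote regions was 0.17, with 113 of 364 called higher and 30 lower by limma. At promoters it was −0.05, with 93 of 771 higher and 115 lower. Of all 2720 regions, 550 were higher and 391 lower. The DBD differences were 0.07 (exact permutation p = 0.055) and 0.10 (p = 0.205). With the replicate block both had a p of 0.0312 (exact permutation, the smallest of that form), and they were 0.07, 0.07 and 0.06 and 0.07, 0.13 and 0.11 within replicates 1, 2 and 3.

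The endogenous protein could be set beside the others at the regions called in all 15 tagged libraries, 229 of them remote. There the median log2 signal of remote regions minus that of regions at 10 to 100 kb was 0.00, −0.06 and −0.03 in KIN. It was 0.32, 0.32 and 0.33 in exogenous HIF-2α, 0.23, 0.14 and 0.22 in HIF-1α/2α, −0.09, −0.15 and −0.08 in HIF-1α and −0.11, 0.01 and −0.04 in HIF-2α/1α. KIN thus lay below both lines with an exogenous HIF-2α IDR and within the range of the lines with the HIF-1α IDR, although its protein has the HIF-2α IDR. Against promoter regions KIN was between the lines with the HIF-2α IDR and those with the HIF-1α IDR by mean, at 0.18 ± 0.08, where the means were 0.65 ± 0.08 in HIF-2α, 0.51 ± 0.05 in HIF-1α/2α, −0.12 ± 0.11 in HIF-1α and −0.03 ± 0.21 in HIF-2α/1α (SD, n = 3 each). These line values are a description. KIN is 1 clone that uses the endogenous promoter, and clone and promoter cannot be told apart from the line.

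**Figure D5:**
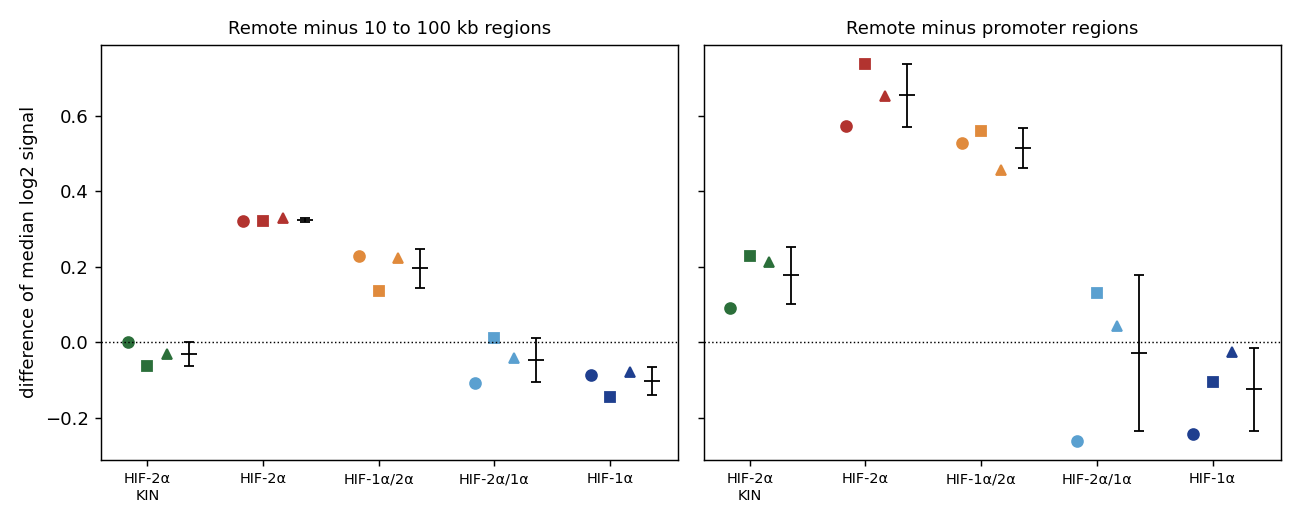
Median log2 signal of the 229 remote regions called in all 15 tagged libraries minus that of regions at 10 to 100 kb (left) or promoter regions (right), per library. Circles, squares and triangles are replicates 1, 2 and 3, and bars the mean ± SD (n = 3); the 6 libraries with an exogenous HIF-2α IDR lie above the other 9 in both panels.

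The strongest remote regions, by the rank of their −log10 q within each list, were taken from those called in 15 tagged and 0 WT libraries, so that their presence in all tagged lines follows from the choice. The first was chr1:8200740-8204087, 3348 bp at the start of the lncRNA LINC01714, 116 kb from SLC45A1 and 176 kb from ERRFI1, a feedback inhibitor of EGF receptor signalling. Its fold enrichment was 128, 205 and 59.3 in KIN, 70.4, 113 and 42.8 in HIF-2α, 70.6, 56.0 and 34.9 in HIF-1α, 172, 115 and 46.3 in HIF-2α/1α, and 113, 116 and 49.0 in HIF-1α/2α. KIN libraries held 2 of its 3 highest values. The region chr6:44009019-44012769, inside the lncRNA SCIRT, lay 116 kb from TMEM63B, its nearest protein-coding gene. On the other side, 237 kb away, was VEGFA, the vascular growth factor and a classic HIF target. This region had folds of 18.0 to 47.7 in KIN and 20.4 to 264 in HIF-2α. Its window holds 4 HRE cores. Others lay beside AUH and SYK (chr9:91192385-91195091, 22.9 to 98.2-fold over the 15 libraries), beside ADAMTS16 (chr5:4801604-4805115), beside DAPK1 (chr9:87371732-87374366) and in an intron of DPYD (chr1:97383544-97386478). An HRE core was found in the moved window in 11 of the 12 strongest regions, the other holding an AP-1 motif. Of the 12, 11 had more relative signal with the HIF-2α IDR by limma, from 0.34 to 1.55 on the log2 scale, and the DAPK1 region had 0.20 (adjusted p = 0.268). Among the 229 remote regions called in all 15 tagged libraries 119 (52.0%) had more, and among all 2720 regions 24.5%. The 12 were ranked in these same lists, so their count is a description.

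Large IDR differences in signal were found beside genes of many kinds. At chr16:86734212-86736410, in LINC02188 and 157 kb from FOXL1, a forkhead transcription factor, the signal relative to the library's median was 1.81, 2.00 and 1.69 in HIF-2α and 4.79, 6.00 and 4.39 in HIF-1α/2α. It was 0.814, 0.904 and 1.20 in HIF-1α and 0.516, 0.462 and 0.451 in HIF-2α/1α. The lines with the HIF-2α IDR were above the others without overlap, and within each IDR the HIF-1α DBD gave more. The log2 differences were 2.17 for the IDR (SE 0.14, limma adjusted p = 2.4e-09) and −1.23 for the DBD (adjusted p = 2.6e-06). At chr9:119090615-119092778, 277 kb from BRINP1, the IDR difference was 1.92 (limma adjusted p = 1.2e-07), and no KIN library called it. At chr10:35794373-35796170, in PCAT5 and 153 kb from FZD8, a Wnt receptor, relative signals were 4.34, 3.85 and 3.58 in HIF-2α, 3.98, 4.05 and 3.61 in HIF-1α/2α, 1.05, 1.15 and 1.07 in HIF-1α and 1.75, 1.96 and 1.20 in HIF-2α/1α. This region was also called in 1 WT library. The 16 remote regions with less signal differed by smaller amounts: the 2 most extreme, beside CNKSR3 and LSM14A, had −0.77 each (limma adjusted p = 0.00227 and 0.00198).

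Among the 364, the DBD difference was most extreme at chr16:80026772-80028511, 427 kb from MAF, a basic leucine zipper transcription factor. Its relative signal was 0.50, 0.684 and 0.769 in HIF-2α and 0.984, 0.606 and 0.569 in HIF-2α/1α, against 2.51, 2.78 and 2.42 in HIF-1α and 3.32, 2.73 and 2.80 in HIF-1α/2α. The DBD difference was −2.04 (limma adjusted p = 1.7e-07) and the IDR difference 0.04 (adjusted p = 0.871), and the groups separated by DBD. A second region, chr17:80649328-80650808 in an intron of RPTOR, a subunit of mTORC1, had a DBD difference of −1.67. In the other direction chr2:120545645-120547114, 189 kb from GLI2, an effector of Hedgehog signalling, had 1.06 (limma adjusted p = 1.4e-05), and an IDR difference of 0.60 as well (adjusted p = 0.00198). Its relative signals were highest in HIF-2α, at 5.15 to 6.16, lowest in HIF-1α, at 1.47 to 2.17, and in between for the chimeras, at 3.04 to 4.16 for HIF-2α/1α and 2.39 to 2.68 for HIF-1α/2α. This region was also called in WT replicate 2, at 12.5-fold.

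Regions with an HRE core were compared with those without it among the 364. With the core, 102 of 206 (49.5%) had more signal with the HIF-2α IDR and the median difference was 0.40. Without it, 59 of 158 (37.3%) did and the median was 0.26. With an AP-1 motif 29 of 67 had more and 1 less, with a median of 0.27, and without it the median was 0.31. No test was made between these groups of regions.

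Some genes had remote regions in number. The 3558 regions had 1312 different nearest protein-coding genes, 6.67% of the 19663 annotated, of which 598 had 1 region and 53 had at least 10. Of 30 listed hypoxia and HIF target genes, 11 were the nearest gene of some remote region (36.7%), with 78 regions in all. Of these regions 12 (15.4%) were called in all 15 tagged libraries, against 6.44% of all remote regions. Of the 17 regions with a signal value, 7 (41.2%) had more signal with the HIF-2α IDR and 1 less, a share near the 44.2% of the 364 remote regions with a signal value. Genes in gene-poor surroundings have more DNA to which they are nearest, and these shares are given as counts only. EGLN3, the prolyl hydroxylase that marks HIF-α for degradation and is itself a HIF target, had 8 regions at 101 to 130 kb. One of them, chr14:34058288-34064934, is 6647 bp long and lies in an intron of an EGLN3 transcript that starts farther out. It had 34.4 to 43.7-fold enrichment in KIN, 37.4 to 118 in HIF-2α and 27.3 to 67.9 in HIF-1α, and an IDR difference in signal of 0.95 (limma adjusted p = 2.1e-05).

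CXCR4, a chemokine receptor and HIF target, had 4 remote regions. The strongest, chr2:136245342-136248688 at 127 kb, was 34.1, 62.5 and 45.2-fold enriched in KIN, 92.1, 84.4 and 25.2 in HIF-2α, 19.7, 47.5 and 27.1 in HIF-1α, 57.4, 57.9 and 65.6 in HIF-2α/1α and 24.8, 78.6 and 31.9 in HIF-1α/2α. Both parts of the protein went with its signal, at 0.70 for the IDR (limma adjusted p = 0.00292) and 0.90 for the DBD (adjusted p = 0.00065). IGFBP3, which binds insulin-like growth factors, had 16 remote regions at 224 to 647 kb. The strongest of them, chr7:46556980-46559965 at 636 kb, was called at 19.0 to 73.4-fold in all 15 tagged libraries. Its differences in relative signal were 0.05 for the IDR (limma adjusted p = 0.814) and −0.25 for the DBD (adjusted p = 0.195), and neither passed the test. The region chr5:173454244-173455977, 127 kb from STC2, a secreted glycoprotein induced by hypoxia, reached 120-fold in HIF-1α replicate 2 and also had a 6.93-fold peak in WT replicate 2. EPAS1, the gene of HIF-2α itself, had 2 remote regions at 125 and 145 kb, called in at most 14 libraries. VEGFA had 7 and CCND1, the cyclin D1 gene, 1.

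Among 24 transcription factors of the kidney lineage, 10 (41.7%) were the nearest gene of 43 remote regions, against 6.67% of all annotated genes. Of the 43, 2 (4.65%) were called in all 15 tagged libraries, against 6.44% of all remote regions. As above, such shares are counts only. MAF had 17 of the 43. The GATA3 region chr10:8279068-8280145, 221 kb away, was called at 5.11 to 34.9-fold in all 15 and in no WT library, and its IDR and DBD differences in signal, 0.10 and 0.21, did not pass the test. OSR1, an early kidney progenitor factor, had 5 regions and TFCP2L1, a factor of the collecting duct, 4. Of the 10 genes for AP-1 subunits, FOSL2 and JUN (20%) had 12 regions between them, of which 2 (16.7%) were called in all 15 tagged libraries. At chr1:58929158-58930642, 146 kb from JUN, the IDR difference was 1.13 (limma adjusted p = 5.6e-06), with relative signals of 1.94, 2.16 and 2.69 in HIF-2α and 0.744, 0.936 and 1.04 in HIF-1α. Of 24 genes of TGF-β signalling and matrix, 15 (62.5%) were nearest to 90 remote regions, of which 7 (7.78%) were called in all 15 libraries. They included KLF6 with 17, RUNX1 with 12, RUNX2 with 10 and COL4A1, a collagen of basement membranes, with 8. The longest remote region, chr13:110004967-110013713 at 8747 bp, lay 159 kb from COL4A1 and was 29.1 to 132-fold enriched in the 15 tagged libraries and 15.1-fold in WT replicate 2. An intronic RUNX1 region, chr21:35779408-35780678, had an IDR difference of 1.28 (limma adjusted p = 2.1e-06).

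Remote regions also came in groups. The median gap to the next remote region was 18.1 kb, 1378 (38.7%) had another within 10 kb and 75.4% within 100 kb, while 249 had none within 1 Mb. The densest 1 Mb window, chr8:127851065-128788063, held 34 remote regions with MYC or GSDMC nearest. MYC, the growth-promoting transcription factor, was the nearest gene of 32 remote regions, at 114 to 929 kb, more than any other gene. In that window 6 regions were called in all 15 tagged libraries, but 18 of the 34 overlapped a WT peak, 2 held an HRE core and 7 an AP-1 motif in the moved window. Other dense windows lay beside SYK and AUH (chr9:90301334-91242485, 30 regions), KLF6 (chr10:3395173-4354946, 29) and CRYBA4 and MN1 (chr22:26795559-27669833, 29), with WT peaks at 2, 9 and 13 of their regions. After MYC, the nearest genes with most remote regions were CITED2, whose protein competes with HIF-α for the coactivators p300 and CBP, with 20, and ID2, an inhibitor of basic helix-loop-helix factors, with 18.

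Peaks in untagged cells overlapped 478 remote regions (13.4%), near the 12.8% of all 25350 regions. Calls in all 3 WT libraries were limited by replicates 1 and 3, which held 134 and 133 remote peaks. Such calls were seen at 25 of all 25350 regions and at 4 remote regions. One of them, chr17:72421270-72423577, at the start of the lncRNA LINC00511 and 302 kb from SOX9, had WT folds of 7.15, 7.93 and 4.98, against 7.74, 16.9 and 13.1 in KIN, 9.13, 26.6 and 11.2 in HIF-2α and 30.3, 29.2 and 21.6 in HIF-1α. It held an AP-1 motif and no HRE core in the moved window, and its DBD difference in signal was −1.19 (limma adjusted p = 3.0e-06). When regions with any WT peak were left out, 120 of 273 remote regions (43.96%) had more signal with the HIF-2α IDR and 13 (4.76%) less. Of all 2008 regions left by the same filter, 495 (24.7%) had more and 393 (19.6%) less.

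The 3 most distant regions lay in a gene desert of chromosome 4 between PCDH7 and ARAP2. The farthest, chr4:33518804-33519697, 2692 kb from ARAP2 and 2795 kb from PCDH7, held an HRE core and was called in 6 tagged libraries at 6.12 to 26.6-fold. The others were called in 2 and 3 libraries. By deposited fold, remote peaks were slightly weaker than peaks at 10 to 100 kb, with a difference of median log2 fold of −0.10 ± 0.07 (SD, n = 15 libraries, above 0 in 0 of 15, exact permutation p = 0.000122, adjusted p = 0.000895). In lists of equal length the direction turned, to 0.036 (exact permutation p = 0.0326).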

How the data were processed

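Cut&Run libraries were made with anti-V5 or IgG from 6 lines (3 biological replicates each, 36 samples, 18 anti-V5 peak lists). Groups and replicate numbers came from the sample labels. Per the submitters' processing notes and the methods, the authors aligned reads to hg38 with Bowtie2 2.3.4.1, processed them with SAMtools 1.8, called peaks with MACS2 (q below 0.01, maximum gap 400 bp, duplicates kept; its version is not given in the sources used here) for each anti-V5 library against IgG of the same line and replicate, without pooling, and removed blacklisted regions with bedtools 2.28.0. The deposited lists hold each peak's position, summit offset, fold enrichment (a ratio to the local background) and −log10 of its p-value and q-value, all by the authors. IgG libraries enter only through these calls.

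Here, autosomal, X and Y peaks were merged, and TSS came from protein-coding transcripts of GENCODE release 44, which is on the same build. Motifs were counted within 50 bp, with windows 1 kb to each side as the flank. Fragments at each summit and the genome mean (the depth) were recovered from the fold and −log10 p of each peak. They matched within 0.001 for 99.97 to 100% of the peaks of a library, and HIF-2α/1α replicate 2 had been scaled by 0.949. Library values were compared in two-sided exact permutation tests: 15 tagged against 3 WT libraries, each part of the protein within strata of the other part (400 relabellings), or sign flips of differences within a library. Benjamini-Hochberg adjustment covered 22 tests. Calls per region were compared with Fisher's exact test, and signals with limma 3.58.1 in R 4.3.3 (2 by 2 factors, adjusted over 2720 regions). Python 3.11.15, NumPy 2.4.6, SciPy 1.17.1, pandas 2.3.3, pysam 0.24.0 and matplotlib 3.10.9 were used. The tests were checked on simulated data. Depth limits single calls, and the number of libraries limits each p-value. Each exogenous protein came from a single stable line, so comparisons by IDR or DBD cannot separate the line from the protein.

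Regions were named by rule: the 12 strongest called in all tagged and no WT libraries, those with the greatest differences in calls or signal, and those at the distance limit and farthest from a TSS. Also named were regions called in all exogenous and no KIN libraries, in all KIN and the fewest exogenous libraries, or in the most WT libraries. The last were those beside listed genes. A further dense window of remote regions is not reported here. The members and gene lists were chosen with earlier results of these data known. The signal comparison, the moved motif window, the difference between regions with and without a motif and the GC correction were added after seeing the data.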

Additional observations from a re-analysis of the deposited data

How the results depend on the processing

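Of 568 alternatives over all results, 496 kept direction and side of the threshold or stayed within 1.5 times a count. The remote share (tagged against WT, and IDR), the HRE excess of tagged over WT, the endogenous regions and the IDR signal contrasts passed their tests under every alternative run. With a limit of 50 kb the values were 0.385 (HRE excess, DBD), 1.33 (AP-1 excess, tagged minus WT), 0.597 (AP-1 excess, remote minus 10 to 100 kb) and 78 regions sorted by IDR, and with 200 kb −0.00871 (share, DBD), −0.649 (AP-1 excess, remote minus 10 to 100 kb) and 19 and 13 regions sorted by IDR and DBD. At a −log10 q of at least 5 they were 0.0714 (HRE, DBD), −0.576 (HRE, remote minus 10 to 100 kb), 2.08, 0.0710 and 0.272 (AP-1, tagged minus WT, IDR, and remote minus 10 to 100 kb) and −0.014 (log2 fold). In lists of equal length they were 11.2 and 1.80 (regions called, IDR and DBD), −0.114 (regions called, remote minus 10 to 100 kb), 0.146 and 0.426 (AP-1, IDR and remote minus 10 to 100 kb) and 0.036 (log2 fold). A window of 100 bp gave 0.135, 1.25 and −0.730 for the HRE (IDR, DBD, remote minus 10 to 100 kb) and −1.48 for AP-1 (remote minus 10 to 100 kb), the motif TACGTG 0.378, 0.106 and −0.117, and leaving out WT peaks −0.526 for the HRE (remote minus 10 to 100 kb). The moved window gave 0.711 and 3.11 (HRE, IDR and DBD), −0.928 (AP-1, remote minus 10 to 100 kb) and 0.291 (regions with minus without AP-1). Of remote regions with more or less signal, uncentred libraries gave 3 and 0 by IDR and 0 and 2 by DBD, the deposited fold 13 and 0 by IDR and 2 and 4 by DBD, GC bins 30 with less by IDR, and regions without WT peaks 18 with less by DBD. Over all 2720 regions uncentred libraries gave 8 and 1 by IDR and 1 and 10 by DBD. The deposited fold gave 46 and 15 by IDR and 25 and 57 by DBD over all, and GC bins 391 with less by IDR. Of all 2008 regions without WT peaks, 263 had less by DBD. The cause of these changes was not tested.

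Leaving out 1 library gave −15.8 to −7.65 (share, tagged minus WT), 1.76 to 5.53 (AP-1, tagged minus WT), −0.501 to −0.275 (AP-1, remote minus 10 to 100 kb; past the threshold without HIF-1α replicate 1), −0.555 to 0.307 (HRE, DBD), −9.14 to 0.102 (regions called, DBD), −0.0479 to 1.10 (share, DBD), and 46 to 87 and 32 to 44 regions sorted by IDR and DBD, where 5 against 6 libraries give other exact p-values (most without HIF-2α replicate 2). The DBD signal contrast was 0.030 to 0.11 against 10 to 100 kb, past the threshold without any 1 HIF-2α/1α replicate or HIF-1α/2α replicate 2, and 0.0025 to 0.21 against promoters, past it without HIF-2α/1α replicate 1.

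Replicates of the same number in different exogenous lines correlated in their deviations from the line means, at 0.206 to 0.299, 0.239 to 0.417 and 0.0883 to 0.240 for numbers 1, 2 and 3, and 12 of 12 libraries correlated best with their own number, a hint from the data and not from the design. With the replicate block, 179 and 25 remote regions had more and less signal with the HIF-2α IDR and 96 and 45 with the HIF-2α DBD. Over all 2720 regions these counts were 759 and 598 by IDR and 613 and 447 by DBD. With that block the DBD signal contrasts of 0.069 and 0.10 had an exact permutation p of 0.0312, the smallest of that form. The block changed no other call.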
